A study of Homo sapiens with 8 samples.

Results

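The collagen chains are the genes whose symbol consists of COL, a type number, the letter A and a chain number. Of the 21077 rows deposited, 43 carried such a symbol, and these rows were taken as the members. The symbol alone decided membership, but the collagens were chosen with earlier results of these data known. The members were read in Hs578T, an established line of estrogen receptor-negative human breast cancer cells with a mesenchymal form. For 48 hours the cells were held at 5 mM glucose, here called low, or at 25 mM, here called high, and 4 libraries were made at each level. Both groups came from the same line, without serum and after conditioning in low glucose according to the study's methods, and no label names a mannitol control, so sugar and osmolarity cannot be told apart in this comparison. The replicates were flasks of the same line, nothing says that they were separate experiments, and p-values therefore measure the spread between these libraries, which may be technical.

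A collagen molecule is a triple helix of chains in which glycine recurs at regular steps. The chains are hydroxylated and folded in the endoplasmic reticulum, secreted as procollagens, trimmed by proteases and cross-linked outside the cell. Fibrillar collagens form the tensile fibrils of connective tissue, type IV collagens form the sheet of basement membranes, and the other classes coat, link or anchor these structures or sit in the cell membrane. In breast tumors a dense collagen matrix is a known feature of the stroma, and mesenchymal tumor cells in culture also make collagen themselves.

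Values are normalized signal, taken as CPM (counts scaled by library size) with scaling factors, and a fold change is the difference of the group means of log2(CPM + 1), high minus low glucose, ± its standard error from limma. A gene was called at a Benjamini-Hochberg adjusted p under 0.05 over 15570 genes, those that reached 0.5 CPM in 2 or more libraries. Of the 43 collagen chains, 32 passed this filter. Of the 11 that did not, COL2A1, COL9A1, COL23A1 and COL26A1 were listed at 0 in every library, COL4A4 reached 0.787 CPM in 1 library, and COL4A3, COL9A3, COL10A1, COL20A1, COL22A1 and COL28A1 stayed between 0.0954 and 0.191 CPM at their highest. Depth was estimated as 10244887 to 11956682 counts in a library, so that 3 counts corresponded to 0.260 to 0.354 CPM and the 10 chains other than COL4A4 were not detectable at this depth. COL2A1, COL9A1 and COL10A1 are chains of cartilage.

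Collagen chains differed between the glucose levels in both directions. Of the 32 tested chains 27 were called (84.4%), 13 higher and 14 lower in high glucose, while 72.9% of all tested genes were called, 35.7% higher and 37.2% lower. Groups did not overlap for 26 of the 32 chains, against 66.7% of all tested genes, and 7 chains passed with a fold change of at least 2, against 17.1% of all tested genes. Of the 32, COL11A1, COL24A1 and COL25A1 passed the filter on low values only through the high-glucose libraries, which favors a higher value there, and the other 29 held 11 called higher and 14 called lower. The median fold change on the log2 scale was 0.18 over the 32 chains and -0.0003 over all tested genes, and its median size was 0.58 and 0.48. The split between higher and lower depended on the scaling. It was 19 higher and 10 lower when each library was rescaled to the same total, a change that raised the median of all genes by 0.23, and 16 and 9 after quantile normalization, which raised it by 0.08. The largest falls were those of COL15A1, COL14A1, COL5A3 and COL6A2, and the largest rises those of COL17A1, COL4A5 and COL4A6, and these 7 kept their direction and their call under every alternative that was run.

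**Figure D1:**
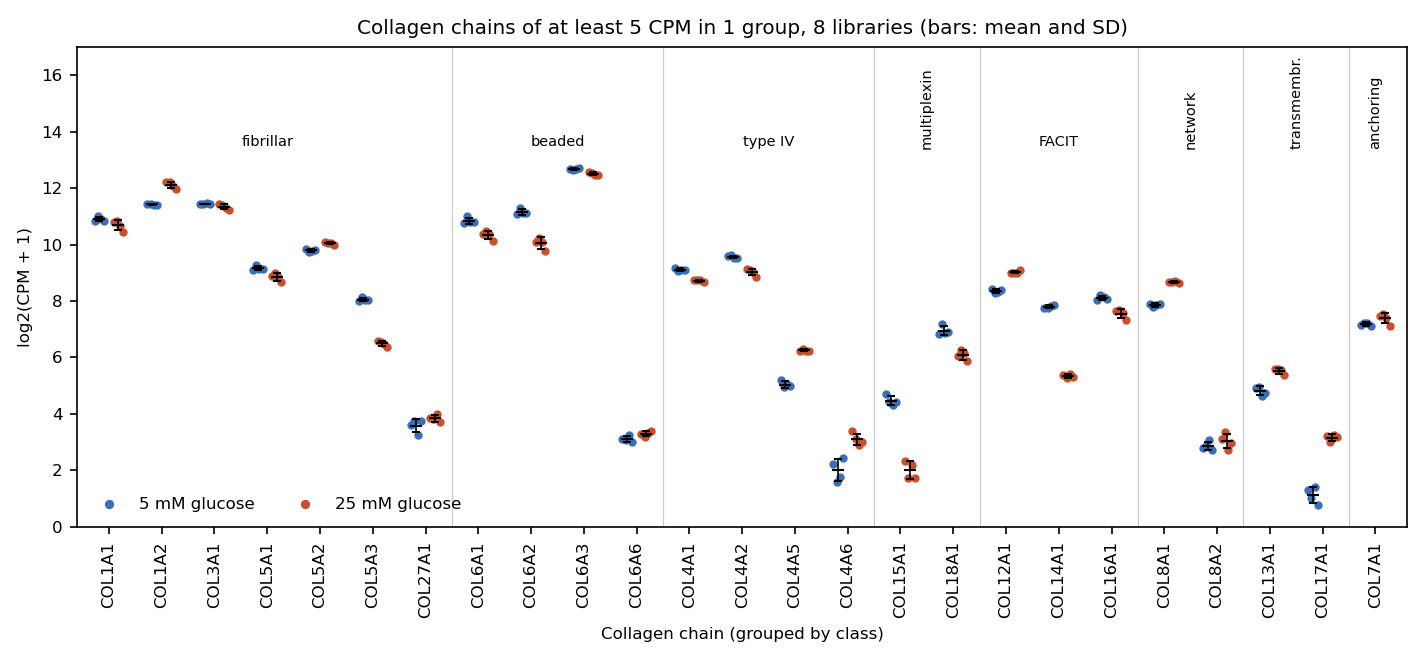
Level of the 25 collagen chains of at least 5 CPM on average in 1 group, as log2(CPM + 1) (vertical axis), by chain and class (horizontal axis). Each point is 1 library, bars give the mean and SD of 4 libraries, and COL6A3, COL1A2 and COL3A1 sit at the top while COL14A1, COL15A1 and COL5A3 show the widest downward gaps between 5 mM and 25 mM glucose.

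The share of all signal that fell on collagen transcripts was 1.86% ± 0.0386 at low and 2.05% ± 0.113 at high glucose (SD, n = 4), but their summed CPM went from 22551 ± 376 to 21015 ± 1302. The sign of the log2 ratio of these sums turned from -0.10 to 0.14 when each library was rescaled to the same total, because the deposited columns sum to 1205567 to 1229021 in low and to 1017015 to 1036274 in high glucose. A few chains made up most of the collagen signal. COL6A3 accounted for 29.0% ± 0.903 of the collagen signal in low and 27.8% ± 0.920 in high glucose, and COL3A1 for 12.3% ± 0.232 and 12.4% ± 0.132. The composition moved mainly through COL1A2, which went from 12.1% ± 0.152 to 21.1% ± 0.498, and COL6A2, which went from 10.1% ± 0.556 to 5.07% ± 0.426. These shares are computed within a library and do not depend on its scaling. Per kb of the annotated canonical transcript, the level of COL6A2 was the highest in low glucose (661.5 ± 47.9 CPM per kb), ahead of COL6A3 (621.0 ± 10.0), COL1A2 (539 ± 7.63) and COL3A1 (507 ± 3.14). In high glucose COL1A2 led with 876 ± 71.5 CPM per kb, followed by COL6A3 with 553 ± 19.6 and COL3A1 with 474 ± 28.7, and COL6A2 had come down to 310.0 ± 40.9.

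Fibrillar collagens went both ways, in a split that depended on the scaling. Of the 10 tested chains 4 were called higher and 4 lower with the deposited scaling, against 7 and 1 with the same library total, 6 and 1 after quantile normalization, 6 and 1 after GC adjustment, and 5 and 2 without low glucose replicate 2 and high glucose replicate 4. COL1A1 and COL1A2 encode the 2 chains of type I collagen, the main collagen of bone, skin and tumor stroma. The low-glucose libraries had 2768, 2769, 2704 and 2699 CPM of COL1A2, and the high-glucose libraries had 4786, 4697, 4269.7 and 4017 CPM. All 4 high-glucose libraries lay above the low-glucose libraries, and the transcript rose by 0.70 ± 0.05 on the log2 scale (adjusted p = 4.11e-09), or by 1.28 after quantile normalization. For COL1A1 the values were 1836, 2072, 1908 and 1832 CPM in low glucose and 1800.4, 1824, 1626 and 1380.2 CPM in high glucose. The groups did not overlap, but the lowest low-glucose library and the highest high-glucose library were only a short step apart. COL1A1 fell by 0.21 ± 0.07 on the log2 scale (adjusted p = 0.0143), a call that was lost without low glucose replicate 2 and high glucose replicate 4 together (log2 fold change -0.09, adjusted p = 0.0785) and without the variance trend (adjusted p = 0.0731), and its direction turned when libraries had the same total (0.03, adjusted p = 0.682), after quantile normalization (0.23, adjusted p = 0.00631) and after adjustment for GC content (0.13, adjusted p = 0.00232). COL1A1 lies at chr17:50184101-50201631 and COL1A2 at chr7:94394895-94431227 (GRCh38.p14).

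COL3A1, which forms type III collagen and mixes with type I in soft tissue, moved little. COL3A1 gave 2789, 2778, 2804 and 2764 CPM in the low-glucose libraries, against 2749, 2717, 2531 and 2416 CPM in the high-glucose libraries. The 4 high-glucose libraries were lower than each low-glucose library, and the difference was a log2 fold change of -0.10 ± 0.04 (adjusted p = 0.0433). This call was lost in 6 of 8 fits that left out 1 library (all but those without high glucose replicate 1 or 2), with adjusted p of up to 0.141 without high glucose replicate 4, and the sign turned with the same library total (0.15, adjusted p = 0.00262) and after quantile normalization (0.21, adjusted p = 4.28e-05).

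Type V collagen regulates the width of type I fibrils, and its 3 chains did not move together. At 5 mM glucose COL5A2 was at 909, 855, 879 and 888 CPM, and at 25 mM it was at 1076, 1061, 1072 and 1019 CPM. COL5A2 rose by 0.26 ± 0.03 on the log2 scale (adjusted p = 3.67e-06), with no overlap between groups, and its log2 fold change was 0.50 with the same library total and 0.57 after quantile normalization. COL5A1 was at 550.3, 620.2, 562 and 559 CPM in the 4 low-glucose libraries and at 473, 505, 464 and 406 CPM in the 4 high-glucose libraries. COL5A1 fell by 0.31 ± 0.06 on the log2 scale (adjusted p = 1.42e-04), but its log2 fold change was -0.07 (adjusted p = 0.279) with the same library total, -0.05 (adjusted p = 0.49) after quantile normalization and -0.02 (adjusted p = 0.634) after GC adjustment. The low-glucose libraries had 256, 283, 258 and 259 CPM of COL5A3, and the high-glucose libraries had 94.5, 92.7, 87.9 and 81.7 CPM. COL5A3, the chain of a rarer type V form, was 2.96-fold lower in CPM and fell by 1.56 ± 0.05 on the log2 scale (adjusted p = 4.41e-13). Its highest high-glucose library was below its lowest low-glucose library by more than the range of either group. COL5A2 lies 19152 bases from COL3A1 on chromosome 2.

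The remaining fibrillar chains were scarce. COL27A1, a long chain of cartilage and other connective tissue, was at 11.2, 12.4, 8.45 and 12.3 CPM in the 4 low-glucose and at 13.5, 13.0, 15.1 and 12.1 CPM in the 4 high-glucose libraries, which overlapped, and did not pass (log2 fold change 0.27 ± 0.12, adjusted p = 0.0556). COL11A1 and COL11A2 encode chains of type XI collagen, which sits in the core of cartilage fibrils, and COL11A1 is also known as a marker of activated tumor stroma. COL11A1 averaged 0.403 ± 0.372 CPM at 5 mM against 0.926 ± 0.455 CPM at 25 mM glucose (SD, n = 4) and did not pass (log2 fold change 0.46 ± 0.21, adjusted p = 0.0598). COL11A2 averaged 0.609 ± 0.305 CPM at 5 mM against 1.42 ± 0.312 CPM at 25 mM glucose (SD, n = 4) and rose by 0.60 ± 0.17 on the log2 scale (adjusted p = 0.00523), while COL24A1, a minor fibrillar chain, averaged 0.113 ± 0.0919 CPM at 5 mM against 0.536 ± 0.161 CPM at 25 mM glucose (SD, n = 4). It was in the test only through high glucose, where 2 libraries reached 0.5 CPM, and its values (log2 fold change 0.46 ± 0.15, adjusted p = 0.0115) are given as a description. Every low-glucose library of COL24A1 was under the level of 3 counts, so its fold change depends on the pseudocount and ranged from 0.11 to 1.66 over the alternatives, and its call was lost after quantile normalization (adjusted p = 0.0916).

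**Figure D2:**
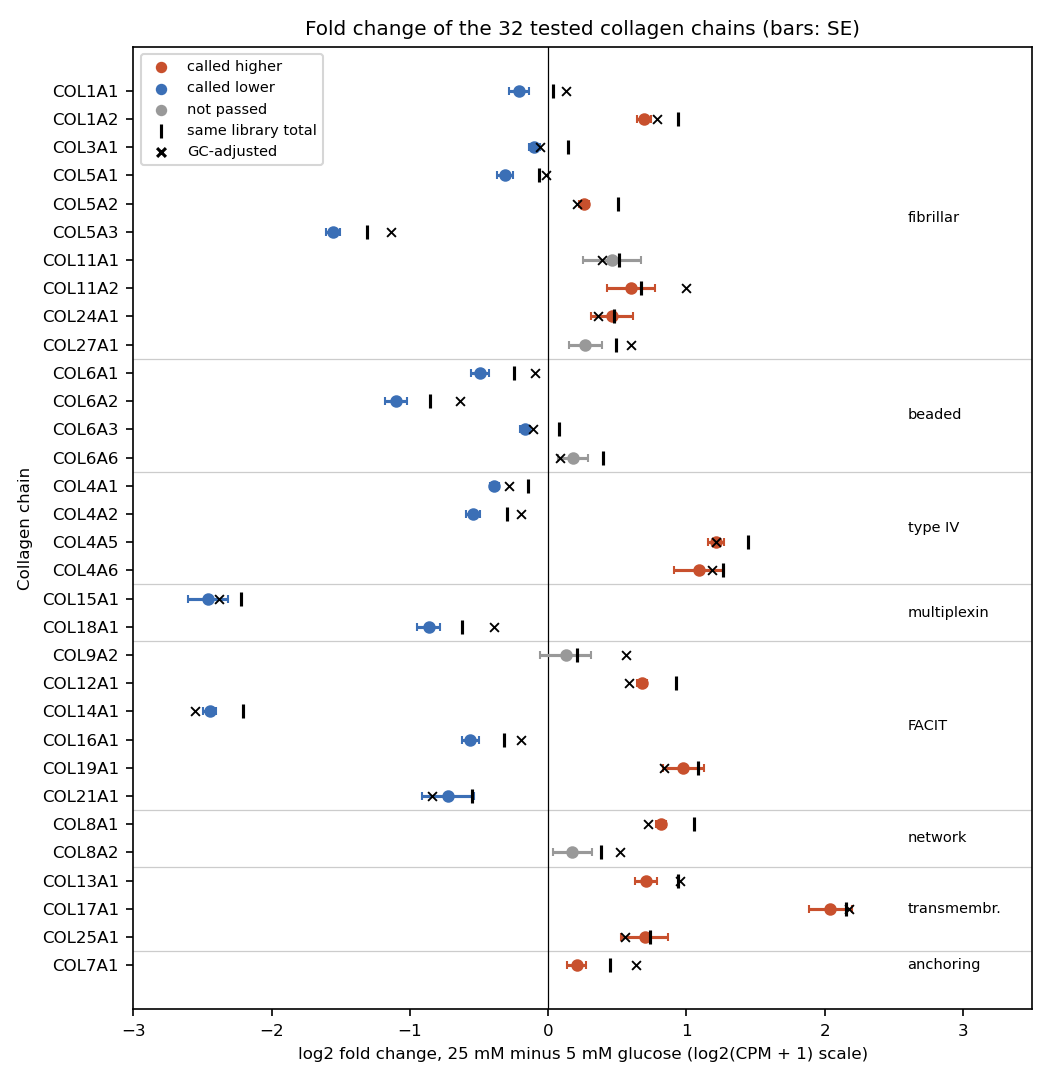
Log2 fold change of the 32 tested collagen chains (horizontal axis, log2(CPM + 1) scale, high minus low glucose) by chain and class (vertical axis), with SE bars and the call by color. Black ticks give the value with each library at the same total and crosses the GC-adjusted value, and COL1A1 crosses 0 under both while COL14A1, COL15A1 and COL17A1 stay beyond 2 in size in each of the 3 estimates.

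Type IV collagen builds the basement membrane network, and its chains are made from genes that lie head to head in pairs. Of the 6 chains, COL4A3 and COL4A4, which are known for the kidney and lung basement membranes, were not tested, and the other 4 were called, both chains of 1 pair lower and both chains of the other pair higher. The start sites of COL4A1 (minus strand) and COL4A2 (plus strand) are 127 bases apart on chromosome 13, and those of COL4A6 (minus strand) and COL4A5 (plus strand) are 380 bases apart on chromosome X. The stretches between the start sites are shown because the chains on both sides of each stretch moved in the same direction. Both are from RefSeq (GRCh38.p14), plus strand, 5′ to 3′, in lower case, with capitals for the CCAAT box (CCAAT, or ATTGG on the other strand) and the GC box (GGGCGG, or CCGCCC on the other strand). The first is the whole stretch between the COL4A1 and COL4A2 start sites, chr13:110307158-110307283, and the second is the 250 bases before the COL4A5 start site, of the 379 bases up to COL4A6, chrX:108439588-108439837.
COL4A1/COL4A2: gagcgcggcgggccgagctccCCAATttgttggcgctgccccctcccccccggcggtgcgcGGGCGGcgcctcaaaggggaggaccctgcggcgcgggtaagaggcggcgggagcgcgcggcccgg
COL4A6/COL4A5: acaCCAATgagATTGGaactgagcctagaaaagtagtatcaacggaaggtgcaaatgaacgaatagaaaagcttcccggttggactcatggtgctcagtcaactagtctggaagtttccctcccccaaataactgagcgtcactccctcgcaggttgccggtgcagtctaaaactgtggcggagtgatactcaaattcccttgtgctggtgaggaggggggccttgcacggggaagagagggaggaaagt
The first stretch has 126 bases, a GC content of 80.2%, 1 CCAAT box and 1 GC box, and the second has a GC content of 51.2%, 2 CCAAT boxes, 1 on each strand, and no GC box. The 129 bases toward COL4A6 that are not shown hold 1 further CCAAT box and no GC box. Neither holds a TATA box (TATAAA on either strand). Of 35116 RefSeq windows of 300 bases around gene starts, 34.6% held a CCAAT box, 44.95% a GC box and 11.5% a TATA box, and of the 32 collagen chains with a window 10, 18 and 5 did. These are matches of letters and not sites of a factor.

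COL4A1 and COL4A2 form the common form of the network, found under nearly every epithelium and endothelium. For COL4A1 the values were 579.8, 539, 544 and 545 CPM in low glucose and 427, 428, 424 and 406 CPM in high glucose. COL4A2 gave 764, 783, 739.6 and 742 CPM in the low-glucose libraries, against 553, 546, 518 and 462 CPM in the high-glucose libraries. No high-glucose library reached the low-glucose range for either chain. COL4A1 fell by 0.39 ± 0.03 on the log2 scale (adjusted p = 6.51e-08) and COL4A2 fell by 0.55 ± 0.05 on the log2 scale (adjusted p = 6.48e-08). The other pair, whose loss is known to cause inherited nephropathy and smooth muscle tumors, moved the other way. At 5 mM glucose COL4A5 was at 35.4, 29.9, 32.0 and 30.3 CPM, and at 25 mM it was at 73.7, 78.4, 74.5 and 73.9 CPM. COL4A6 was at 3.65, 2.02, 2.38 and 4.36 CPM in the 4 low-glucose libraries and at 9.36, 7.62, 6.39 and 6.93 CPM in the 4 high-glucose libraries. COL4A5 was 2.36-fold higher in CPM and rose by 1.21 ± 0.06 on the log2 scale (adjusted p = 4.92e-11), and the far scarcer COL4A6 rose by 1.09 ± 0.18 on the log2 scale (adjusted p = 5.44e-05). Both pairs kept their calls under every alternative that was run, with log2 fold changes of -0.40 to -0.14 for COL4A1, -0.58 to -0.19 for COL4A2, 1.12 to 1.45 for COL4A5 and 0.64 to 1.31 for COL4A6. In summed CPM the class went from 1344 ± 30.5 to 1024 ± 52.7, since COL4A1 and COL4A2 are far more abundant.

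The multiplexins, COL15A1 and COL18A1, sit at the border of basement membranes and carry the fragments restin and endostatin at their ends. The low-glucose libraries had 24.8, 20.1, 19.0 and 20.4 CPM of COL15A1, and the high-glucose libraries had 4.07, 2.30, 3.53 and 2.34 CPM. Every low-glucose library was above every high-glucose library by a wide margin. COL15A1 was 6.88-fold lower in CPM in high glucose, with a log2 fold change of -2.46 ± 0.15 (adjusted p = 5.48e-10) and a range of -2.78 to -1.69 over the alternatives. For COL18A1 the values were 113, 145, 117 and 117 CPM in low glucose and 65.8, 76.1, 69.6 and 57.5 CPM in high glucose. COL18A1 fell by 0.86 ± 0.08 on the log2 scale (adjusted p = 1.66e-07), with low glucose replicate 2 well above the other low-glucose libraries. Its log2 fold change was -0.39 (adjusted p = 2.27e-07) after GC adjustment, and its transcript has the highest GC content of the 32 tested chains (67.2%). COL15A1-AS1, COL18A1-AS1, COL18A1-AS2, COL4A2-AS1, COL4A2-AS2 and COL5A1-AS1 overlap the collagen genes they are named for, and since the use of strand in counting is not given in the sources used here, reads of these genes and their antisense partners cannot be told apart.

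FACIT collagens, whose helices are interrupted, decorate the surface of fibrils. The 6 tested members included 2 that rose, 3 that fell and 1 that did not pass. COL12A1 and COL14A1 both bind the surface of type I fibrils, and they moved in opposite directions. COL12A1 gave 339, 308, 315 and 333 CPM in the low-glucose libraries, against 514, 506, 513 and 543 CPM in the high-glucose libraries. COL12A1 rose by 0.68 ± 0.04 on the log2 scale (adjusted p = 3.27e-10), with all high-glucose libraries above the low-glucose range. At 5 mM glucose COL14A1 was at 216, 212, 225 and 229 CPM, and at 25 mM it was at 40.7, 37.3, 41.9 and 38.5 CPM. COL14A1 was 5.57-fold lower in CPM and fell by 2.45 ± 0.05 on the log2 scale (adjusted p = 2.45e-15), and its log2 fold change stayed between -2.56 and -2.20 in every fit. COL16A1 was at 263, 295, 281 and 266 CPM in the 4 low-glucose libraries and at 198, 203, 187 and 161 CPM in the 4 high-glucose libraries. COL16A1, a chain of fibril surfaces and of matrix near basement membranes, fell by 0.56 ± 0.06 on the log2 scale (adjusted p = 6.41e-07), and after GC adjustment its log2 fold change was -0.19 (adjusted p = 2.14e-05). COL19A1, a rare chain of basement membrane zones, averaged 1.01 ± 0.207 CPM at 5 mM against 2.97 ± 0.492 CPM at 25 mM glucose (SD, n = 4) and rose by 0.98 ± 0.15 on the log2 scale (adjusted p = 2.45e-05). COL21A1, a FACIT chain of blood vessel walls, averaged 2.54 ± 0.680 CPM at 5 mM against 1.14 ± 0.425 CPM at 25 mM glucose (SD, n = 4) and fell by 0.72 ± 0.18 on the log2 scale (adjusted p = 0.00247). COL9A2, of cartilage type IX, averaged 0.652 ± 0.415 CPM at 5 mM against 0.770 ± 0.183 CPM at 25 mM glucose (SD, n = 4) and did not pass (log2 fold change 0.13 ± 0.18, adjusted p = 0.542). These 3 chains averaged under 5 CPM in both groups, and over the alternatives the log2 fold change of COL19A1 ranged from 0.41 to 1.47 and that of COL21A1 from -1.12 to -0.29, both with every call kept.

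Type VI collagen forms beaded microfibrils around cells from COL6A1, COL6A2 and, usually, COL6A3. It was the most abundant collagen by summed CPM, 10665 ± 213 in low and 8207 ± 434 in high glucose. The low-glucose libraries had 2188, 2526, 2201 and 2200.2 CPM of COL6A2, and the high-glucose libraries had 1094, 1206, 1099.7 and 872 CPM. COL6A2 was 2.13-fold lower in CPM and fell by 1.10 ± 0.08 on the log2 scale (adjusted p = 3.42e-09). For COL6A1 the values were 1740.4, 2043, 1784 and 1785 CPM in low glucose and 1335, 1426, 1338 and 1127 CPM in high glucose. COL6A1, which lies 93064 bases from COL6A2 on chromosome 21, fell by 0.49 ± 0.06 on the log2 scale (adjusted p = 4.38e-06). After GC adjustment the log2 fold change of COL6A2 was -0.64 (adjusted p = 2.24e-12) and that of COL6A1 -0.09 (adjusted p = 0.00767). Low glucose replicate 2 was the highest low-glucose library for both, and high glucose replicate 4 the lowest of all 8. COL6A3 gave 6611, 6400.4, 6518 and 6632 CPM in the low-glucose libraries, against 6061, 5925, 5699 and 5609.7 CPM in the high-glucose libraries. COL6A3 fell by 0.17 ± 0.04 on the log2 scale (adjusted p = 9.53e-04), a direction that turned with the same library total (0.08, adjusted p = 0.0466) and after quantile normalization (0.56, adjusted p = 1.13e-09), a method that sets the values of the most abundant genes by their rank. After quantile normalization COL6A1 no longer passed (-0.04, adjusted p = 0.583). COL6A6, which can take the place of COL6A3, was at 7.64, 7.42, 8.45 and 7.08 CPM in low and 8.75, 8.02, 8.88 and 9.55 CPM in high glucose and did not pass (log2 fold change 0.18 ± 0.11, adjusted p = 0.137). COL6A5 was not analysed here.

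COL8A1 and COL8A2 form the hexagonal lattice of type VIII collagen, known from the corneal Descemet membrane and from vessel walls. At 5 mM glucose COL8A1 was at 238, 218, 232 and 236 CPM, and at 25 mM it was at 409.9, 405, 412 and 399 CPM. COL8A1 rose by 0.81 ± 0.04 on the log2 scale (adjusted p = 1.70e-11), with a gap between groups many times wider than the range within either. COL8A2 was at 5.98, 6.30, 7.37 and 5.54 CPM in low and 7.54, 9.22, 5.63 and 6.84 CPM in high glucose, the groups overlapped, and it did not pass (log2 fold change 0.18 ± 0.14, adjusted p = 0.271). COL7A1, the anchoring fibril of skin, was the only member called although its groups overlapped. COL7A1 was at 142, 149, 149 and 136 CPM in the 4 low-glucose libraries and at 177, 186, 168 and 139 CPM in the 4 high-glucose libraries. It rose by 0.21 ± 0.07 on the log2 scale (adjusted p = 0.0163), and the call was lost without high glucose replicate 1 (0.18, adjusted p = 0.051), without high glucose replicate 2 (0.15, adjusted p = 0.0603), without low glucose replicate 4 (0.18, adjusted p = 0.0537) and without the variance trend (0.21, adjusted p = 0.0725). After GC adjustment its log2 fold change was 0.64 (adjusted p = 5.09e-11).

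COL17A1 and COL13A1, which are transmembrane collagens, rose, and the third tested one, COL25A1, was scarce. COL17A1, the hemidesmosome collagen that fixes basal epithelial cells to the basement membrane, had the largest rise of any member. The low-glucose libraries had 1.44, 1.01, 1.63 and 0.708 CPM of COL17A1, and the high-glucose libraries had 8.32, 6.91, 8.49 and 8.02 CPM. It was 6.64-fold higher in CPM and rose by 2.04 ± 0.15 on the log2 scale (adjusted p = 8.26e-09), with a range of 1.06 to 2.69 over the alternatives. For COL13A1 the values were 29.2, 30.1, 23.5 and 25.9 CPM in low glucose and 46.5, 46.7, 46.1 and 40.2 CPM in high glucose. COL13A1, a collagen of focal adhesions and the neuromuscular junction, rose by 0.71 ± 0.08 on the log2 scale (adjusted p = 1.04e-06). COL25A1, a brain collagen also known from amyloid plaques, averaged 0.330 ± 0.265 CPM at 5 mM against 1.13 ± 0.201 CPM at 25 mM glucose (SD, n = 4), with 1 low-glucose library listed at 0. Only 1 low-glucose library reached 0.5 CPM, so it was in the test through high glucose, and its values (log2 fold change 0.70 ± 0.17, adjusted p = 0.00166) are given as a description. Of 6 other epithelial markers EPCAM and KRT19 were not tested, and none of the rest was called higher. KRT8 and KRT18 were called lower (log2 fold change -1.47 and -1.15, adjusted p = 1.15e-10 and 9.44e-12). EPCAM was listed at 0 in every library, CDH1 stayed at or below 0.902 CPM and did not pass (adjusted p = 0.0533), and the keratins KRT8 and KRT18 averaged 49.5 ± 2.24 and 231.8 ± 10.1 CPM at the low level and 17.3 ± 1.93 and 103.8 ± 6.40 CPM at the high level.

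Chains that enter the same triple helix were compared as ratios within a library, which the scaling of the library leaves almost unchanged. Of 8 pairs tested, 6 differed between groups with no overlap. Any ratio without overlap reaches the smallest p that a 2-sided exact permutation test of 4 against 4 libraries allows (0.0286, from 70 arrangements). This was 0.0381 after adjustment over the 8 pairs. The share of other gene pairs without overlap was not computed, and of all tested genes taken singly 66.7% did not overlap. Type I collagen is usually assembled from more COL1A1 than COL1A2 chains. COL1A1/COL1A2 in CPM was 0.663, 0.748, 0.705 and 0.679 in the low-glucose libraries and 0.376, 0.388, 0.381 and 0.344 in the high-glucose libraries, and each high-glucose library lay below each low-glucose library. For COL6A1/COL6A2 the ratio went from 0.796, 0.809, 0.810 and 0.811 to 1.22, 1.18, 1.22 and 1.29, so that the order of these chains by CPM, which is not corrected for length, turned over between groups. Per kb of transcript COL6A1 was at 437.3 ± 32.9 and COL6A2 at 661.5 ± 47.9 CPM in low glucose. In high glucose they were level within their spread, at 310.9 ± 30.2 and 310.0 ± 40.9 CPM per kb. COL5A1/COL5A2 went from a mean of 0.650 ± 0.0522 to 0.437 ± 0.0317, COL4A1/COL4A2 from 0.729 ± 0.0295 to 0.813 ± 0.0483, COL6A3/COL6A1 from 3.58 ± 0.301 to 4.48 ± 0.367 and COL8A1/COL8A2 from 37.1 ± 5.02 to 57.4 ± 12.2 (SD, n = 4). COL4A5/COL4A6 averaged 11.2 ± 3.56 in low and 10.1 ± 1.61 in high glucose in CPM. Its log2 difference, which is taken after adding 1 CPM to each chain, was 0.12 and did not pass the exact permutation test (p = 0.686, adjusted p = 0.743), and with 0.1 CPM added it was -0.074, so no direction is given. COL11A1/COL11A2 (log2 difference -0.14, exact permutation p = 0.743) rests on a handful of counts per library.

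**Figure D3:**
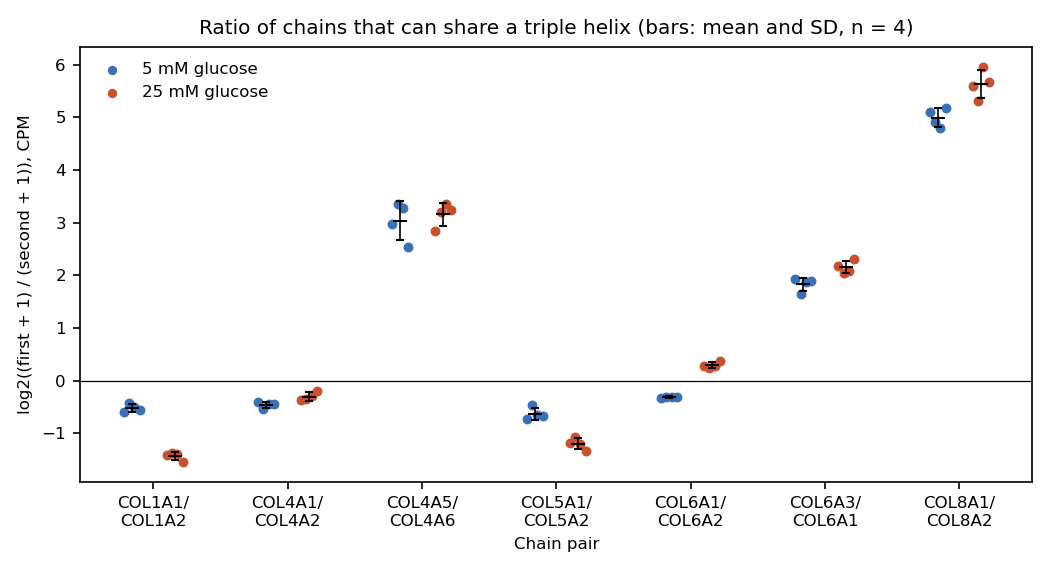
Ratio of chains that can share a triple helix, as log2((first + 1) / (second + 1)) of CPM (vertical axis), for 7 of the 8 pairs (horizontal axis). Each point is 1 library with the mean and SD of 4, and the COL1A1/COL1A2 points lie near -0.52 in low and -1.43 in high glucose while those of COL6A1/COL6A2 pass from -0.31 to 0.30.

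Fold changes went with the base composition of the transcripts. Over the 15374 tested genes with an annotated transcript, the fold change correlated with GC content across genes, which are not independent replicates, at a Pearson r of -0.24, and over the 32 collagen chains at -0.22 (Spearman rho -0.24 and -0.37). The called chains that rose had a median GC content of 50.8% and those that fell 60.9%. Library-to-library deviations within a group went with GC content too. Over the 25 chains of at least 5 CPM the deviation of high glucose replicate 4 from its group mean correlated with GC content at -0.77, and this library was the lowest of its group for 17 of the 25. For low glucose replicate 2 the value was 0.65, and it was the highest of its group for 12 of the 25. The part of base composition in the fold changes was not tested beyond a refit. That refit, added after the data were examined, removed a smooth trend of the log values with GC content in each library and called 28 chains, 17 higher and 11 lower. COL9A2 (0.57), COL27A1 (0.60) and COL8A2 (0.52) then passed as higher, and COL1A1, called lower before, was called higher (0.13, adjusted p = 0.00232). COL3A1 (-0.06, adjusted p = 0.079) and COL5A1 (-0.02, adjusted p = 0.634) no longer passed. The chain ratios that set a GC-rich chain against one of lower GC content moved under this refit, which itself acts by GC content. The log2 difference went from 0.33 to -0.02 for COL6A3/COL6A1, from 0.16 to -0.09 for COL4A1/COL4A2 and from -0.91 to -0.66 for COL1A1/COL1A2. That of COL6A1/COL6A2 went from 0.61 to 0.55. No ratio was under an adjusted p of 0.0571 in the exact permutation test. Without low glucose replicate 2 and high glucose replicate 4, a fit also added later, 26 chains were called, 14 higher and 12 lower.

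**Figure D4:**
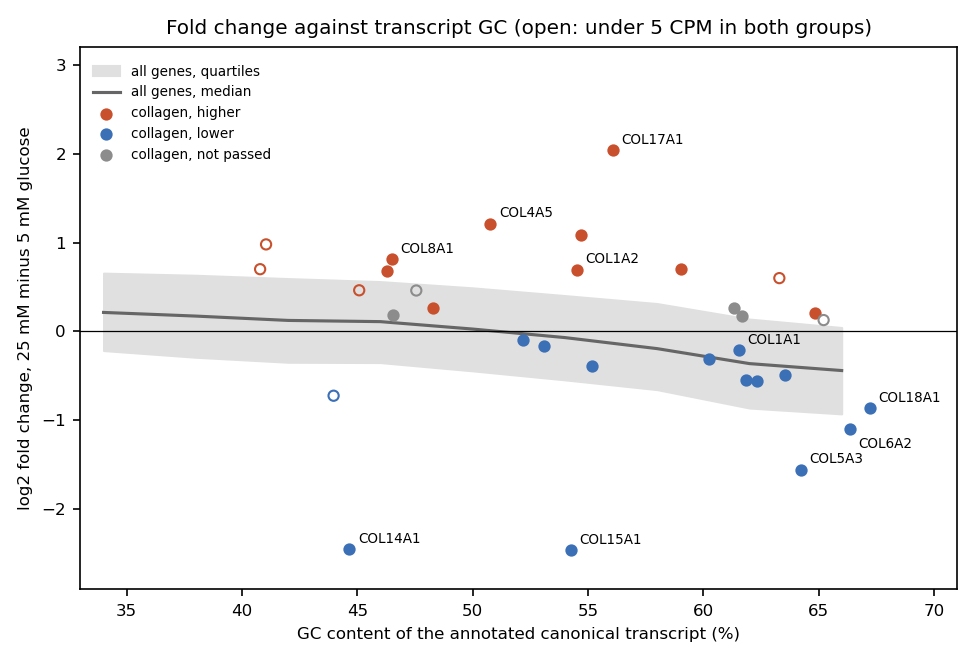
Log2 fold change (vertical axis, high minus low glucose) against the GC content of the annotated canonical transcript in percent (horizontal axis) for the 32 tested collagen chains, colored by call, over the median (line) and quartiles (band) of all tested genes in bins of GC content. The line for all genes goes down to the right, and COL14A1 and COL15A1 lie far below the band at 44.7% and 54.3% GC while COL17A1 lies far above it at 56.1%.

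Genes that make, process, bind and break down collagen were read from lists of 70 partners, of which 61 were tested, 22 rose, 37 fell and 2 (KLHL12 and MMP2) did not pass, at a median log2 fold change of -0.36. Of all tested genes 72.9% were called, 35.7% higher and 37.2% lower, and the counts of each list are to be read against these shares. Prolyl and lysyl hydroxylases, chaperones and other folding genes were split, 8 higher and 10 lower of 18. PLOD2, which hydroxylates lysines of the telopeptides and so sets the type of cross-link, was at 225.9, 202.4, 217.7 and 220.4 CPM in low and at 511, 523, 557 and 554 CPM in high glucose, and rose by 1.30 ± 0.04 (log2 fold change, adjusted p = 4.60e-13). P4HA2, a catalytic subunit of prolyl 4-hydroxylase, was at 403, 398, 399.9 and 397 CPM in low and at 135, 126, 121 and 119 CPM in high glucose, and fell by 1.67 ± 0.04 (adjusted p = 2.53e-14). Its paralog P4HA1 rose by 0.14 ± 0.04 (adjusted p = 0.00754), with a value of -0.01 (adjusted p = 0.822) after GC adjustment. FKBP14, a prolyl isomerase for collagen folding, rose by 1.33 ± 0.05 (adjusted p = 1.23e-12). SERPINH1, the collagen chaperone HSP47, fell by 0.29 ± 0.04 (adjusted p = 5.84e-06), a difference that came to -0.05 (adjusted p = 0.221) with the same library total, 0.00 (adjusted p = 0.959) after quantile normalization and -0.05 (adjusted p = 0.121) after GC adjustment.

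The secretion list, which holds the receptors and coat proteins that load large procollagens into transport carriers, moved 1 way. Of 8 genes 7 fell and none rose, while of all tested genes 37.2% were called lower and 35.7% higher. KLHL12 did not pass (log2 fold change -0.07, adjusted p = 0.36), although with the same library total KLHL12 was called higher (0.17, adjusted p = 0.0418). MIA2 (cTAGE5) went from a mean of 147.0 ± 6.45 to 46.8 ± 3.49 CPM and fell by 1.63 ± 0.06 (adjusted p = 8.29e-13). MIA3 (TANGO1), its partner at endoplasmic reticulum exit sites, went from 316 ± 12.3 to 169 ± 10.0 CPM and fell by 0.90 ± 0.05, and the coat protein SEC24D went from 313 ± 8.39 to 195 ± 6.31 CPM and fell by 0.68 ± 0.04. The other genes that fell were SEC23A, PREB, SEC13 and SEC31A, with log2 fold changes of -0.85 to -0.34.

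**Figure D5:**
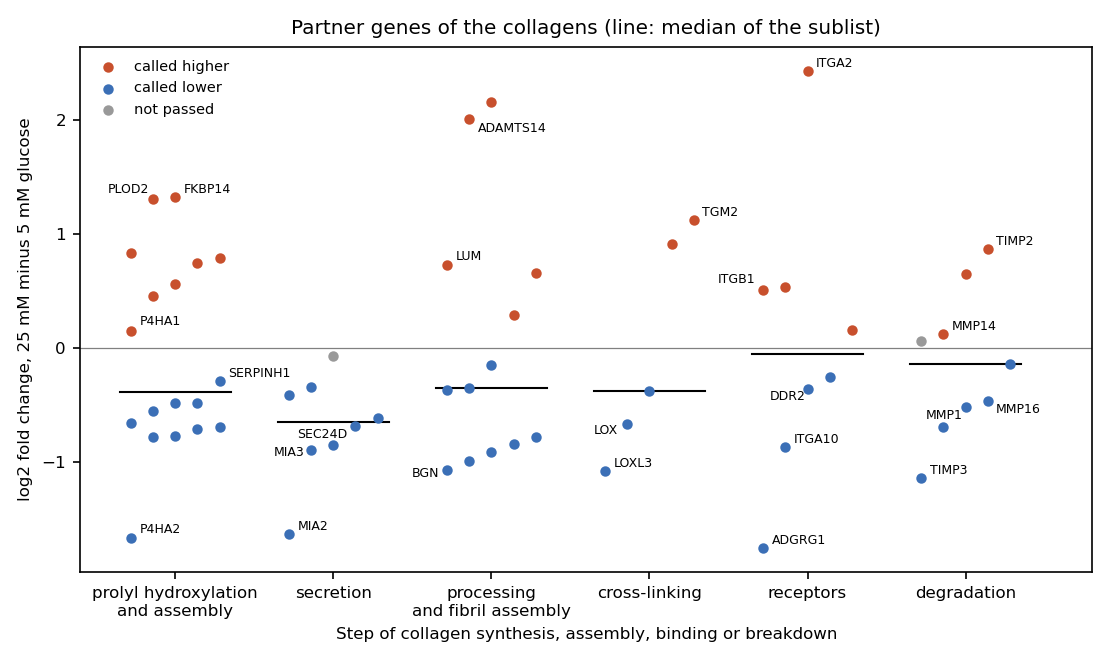
Log2 fold change (vertical axis, high minus low glucose) of the 61 tested partner genes by step of collagen synthesis, assembly, binding or breakdown (horizontal axis). Each point is 1 gene colored by its call, lines give the median of each list, and the secretion list is the one with no point called higher.

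Among genes of processing and fibril assembly 5 rose and 8 fell of 13, or 6 and 6 with the same library total and after quantile normalization. SPARC, a collagen-binding matrix protein, was called lower (log2 fold change -0.15, adjusted p = 9.26e-04) but higher with the same total (0.095, adjusted p = 0.0103) and after quantile normalization (0.36, adjusted p = 4.92e-09). FN1 (fibronectin), at -0.78 (adjusted p = 7.11e-10), came to 0 after quantile normalization. That method gives a gene of the same rank in every library the same value, so nothing is concluded from it for FN1. ADAMTS14, a protease that removes the amino-terminal propeptide, went from 7.70 ± 0.763 to 34.0 ± 2.88 CPM and rose by 2.01 ± 0.09 (adjusted p = 2.63e-11). The small proteoglycans that bind fibrils moved apart, since LUM (lumican) rose from 383 ± 13.9 to 637 ± 16.3 CPM, by 0.73 ± 0.04, and BGN (biglycan) fell from 1557 ± 81.0 to 740.0 ± 69.8 CPM, by 1.08 ± 0.06. Of 5 cross-linking enzymes 2 rose and 3 fell. LOX, the founding lysyl oxidase, fell by 0.67 ± 0.04 from 741 ± 30.6 CPM, LOXL3 fell by 1.08 ± 0.05 from 142 ± 6.20 CPM, and TGM2, a transglutaminase, rose by 1.12 ± 0.06 from a mean of 29.9 CPM. Adjusted p for LUM, BGN, LOX, LOXL3 and TGM2 was between 9.52e-12 and 2.16e-10.

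Collagen receptors were split, 4 higher and 4 lower of 8. ITGA2, which pairs with ITGB1 in the integrin for fibrillar collagen, was at 56.6, 49.9, 52.4 and 53.9 CPM in low and at 281, 281, 305 and 299 CPM in high glucose, and rose by 2.43 ± 0.05 (adjusted p = 2.28e-15), the largest change of any partner. ITGB1 rose by 0.51 ± 0.04 (adjusted p = 2.74e-08). ITGA10, of the integrin for cartilage and type IV collagens, fell by 0.87 ± 0.04, ADGRG1, a receptor for type III collagen, fell by 1.76 ± 0.09, and DDR2, the receptor tyrosine kinase for fibrillar collagen, fell by 0.36 ± 0.04 (adjusted p = 6.30e-07) but did not pass after quantile normalization (-0.05, adjusted p = 0.361). Of 9 genes of degradation 3 rose and 5 fell. MMP2, a gelatinase, did not pass (0.06, adjusted p = 0.142), but it was called higher with the same library total (0.30, adjusted p = 6.12e-07), after quantile normalization (0.32, adjusted p = 2.16e-07), after GC adjustment (0.19, adjusted p = 4.30e-06) and without low glucose replicate 2 and high glucose replicate 4 (0.09, adjusted p = 0.0318). FAP, a serine protease of activated fibroblasts, was called lower (-0.14, adjusted p = 0.0265) but not with the same total (0.11, adjusted p = 0.0779) or after quantile normalization (-0.04, adjusted p = 0.535). TIMP3, a matrix-bound inhibitor of metalloproteinases, went from 3128 ± 22.6 to 1417 ± 22.4 CPM and fell by 1.14 ± 0.03 (adjusted p = 7.20e-14), while TIMP2 went from 354 ± 2.07 to 647 ± 23.8 CPM and rose by 0.87 ± 0.03 (adjusted p = 3.61e-12). MMP1, an interstitial collagenase, fell by 0.51 ± 0.12 (adjusted p = 9.38e-04), the membrane-bound MMP14 rose by 0.12 ± 0.04 (adjusted p = 0.0128), and MMP16 fell by 0.46 ± 0.04 (adjusted p = 1.18e-07).

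The marker genes were those of a mesenchymal, estrogen receptor-negative line in both groups. The mesenchymal markers VIM, CDH2, ZEB1 and FN1 were all called lower in high glucose, with log2 fold changes of -1.17, -0.47, -0.71 and -0.78. VIM went from 8420 ± 132 to 3733 ± 140 CPM, ESR1 stayed at or below 0.270 CPM and TFF1 was listed at 0. Of markers of other cells that make collagen or lie near it, CDH5 was listed at 0, VWF reached 1.82 CPM and PTPRC 1.08 CPM at the most. PECAM1 went from 2.05 ± 0.334 to 5.80 ± 0.603 CPM. PECAM1, VWF and PTPRC were called higher in high glucose, with log2 fold changes of 1.16, 1.05 and 0.65 (adjusted p = 1.46e-06, 1.42e-05 and 0.00202). The 3 endothelial markers summed to 1.95 to 2.77 CPM at the low and 6.21 to 7.80 CPM at the high level, and the leukocyte markers, nearly all CD68, to 179.7 to 188.6 and 91.9 to 96.6 CPM. The 5 fibroblast and myofibroblast markers were all measured and went both ways. Their summed level, mostly POSTN, was 7014 to 7490 CPM in low and 3733 to 3919 CPM in high glucose. POSTN, which binds fibrillar collagen, went from 6449 ± 242 to 2822 ± 139 CPM, PDGFRA from 103 ± 3.37 to 247 ± 4.03 CPM and ACTA2 from 258 ± 10.5 to 143 ± 4.06 CPM. In bulk samples fewer cells of a state and less RNA per cell cannot be told apart, and the part of cell state in the collagen values was not tested.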

How the data were processed

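RNA-Seq of 8 Hs578T libraries, 4 per glucose level by the treatment label, was analysed. The authors deposited 1 table of normalized signal per gene and library, and hg38 and edgeR are named in the submitters' processing notes. It was read as CPM scaled with TMM factors, as the study describes for its other RNA-Seq, which centers fold changes near 0. The aligner is not given in the sources used here, nor the counter or the use of strand, and the notes on the sequencer differ. The counts behind the values were fractional (71.3% to 73.7% of values below 50 reads were whole within 0.005 read), so no count test was used. Depth, estimated from the value of 1 read, lay between 10244887 and 11956682 counts a library, and what follows from it covers counting error alone.

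The 15570 genes that reached 0.5 CPM in 2 or more libraries were fitted with limma 3.58.1 under R 4.3.3, on log2(CPM + 1), with a variance trend and no covariate, and p-values were adjusted by Benjamini-Hochberg over these genes. The pseudocount of 1 CPM understates fold changes of low genes. Chain ratios were compared by 2-sided exact permutation tests. Transcript length and GC content came from GENCODE canonical transcripts, gene positions and start windows from RefSeq GRCh38.p14. Of the 43 chains 32 had a window, and COL1A1, COL1A2, COL2A1, COL3A1, COL5A2, COL6A1, COL8A1, COL9A3, COL14A1, COL20A1 and COL22A1 had none.

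The collagen chains, their classes, the partner and marker lists and the pairs were chosen with earlier results of these data known. Every chain is accounted for. Values in all 8 libraries are given for chains whose mean reached 5 CPM in a group, and partner genes are named where they had the 3 smallest p of their list at 5 CPM or more, with SERPINH1, P4HA1, PLOD2, LOX, DDR2, ITGB1, MMP1, MMP14 and TGM2 added. SPARC, FN1, MMP2, FAP and KLHL12 were named after their values were seen. Of the further marker lists, the 4 estrogen receptor genes were under 1 CPM in every library, adipocyte genes reached 0.347 CPM, endothelial genes 6.21 CPM, and the leukocyte list 188 CPM through CD68. Alternatives changed the pseudocount, the filter, the scaling, the variance trend, the block, the cutoff of the adjusted p and the libraries. The GC adjustment and the fit without 2 libraries were added after the data were examined.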

Additional observations from a re-analysis of the deposited data

Results flagged for a closer look

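Among the values of 98 groups of 4 libraries (chains, class sums and chain ratios), 12 held a library farther from the rest than Dixon's 95% limit allows, where chance flags about 1 in 20 groups. Low glucose replicate 2 was the high library for COL6A1 (2043 CPM against a group median of 1785), COL6A2 (2526 against 2201), COL5A1 (620.2 against 561), COL5A3 (283 against 259) and COL18A1 (145 against 117). It was also the high one for the summed CPM of all collagens (23111 against 22382), of the multiplexins (165.5 against 138) and of the fibrillar, type IV and beaded filament chains together (21722 against 21006). High glucose replicate 4 was the low library for COL4A1 (406 against 425) and COL13A1 (40.2 against 46.3). Low glucose replicate 1 was the high library for COL4A1 (579.8 against 544) and the low one for the log2 ratio of COL6A1 to COL6A2 (-0.33 against -0.30). The sums share these chains, and all the chains share these libraries, so the values do not count as separate events. In low glucose replicate 2 and high glucose replicate 4 the deviation of all tested genes from the group mean correlated with GC content at 0.29 and -0.39, and the part of this in the values above was not tested.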

How the results depend on the processing

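The number of collagen chains called was 25 to 31 over the alternatives, against 27, and that of partner genes 55 to 61, against 59. The number of chains called lower was 9 after quantile normalization. With a replicate block 28 chains were called, 14 higher and 14 lower, COL11A1 passing as well (adjusted p = 0.0437), and the block changed no other call of a chain. Among chains that did not pass, COL27A1 was called higher in 7 alternative fits, COL11A1 in 4, and COL6A6 and COL8A2 in 2 each. COL9A2 was called higher in 1, after GC adjustment. Whether the numbers pair the libraries could not be told. The deviations of same-numbered libraries over all tested genes correlated at -0.03, 0.11, 0.01 and 0.08. Of the 4 low-glucose libraries 2 correlated best with their own number.

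Directions turned as follows, and the cause was not tested. Among partner genes, the sign changed for SPARC, KLHL12, FAP, SERPINH1 and P4HA1 under the settings given with their values above. FN1 came to 0 after quantile normalization, which gives a gene of the same rank in every library the same value. COL1A1 was at 0.13 after GC adjustment, 0.23 after quantile normalization and 0.032 with the same library total. After quantile normalization and with the same total, COL3A1 was at 0.21 and 0.15 and COL6A3 at 0.56 and 0.077. COL9A2, which did not pass, was at -0.065 after quantile normalization and -0.0069 without low glucose replicate 1. The log2 ratio of summed CPM was 0.14 for all collagens and 0.11 for the FACIT class with the same library total. The log2 difference of COL4A5/COL4A6 was -0.074 with a pseudocount of 0.1 CPM, 0.48 (adjusted p = 0.0327) with 5 CPM, and -0.041 to 0.23 with 1 library left out, lowest without low glucose replicate 4. That of COL11A1/COL11A2 was -0.35 to 0.15 with 1 library left out, highest without low glucose replicate 4. After GC adjustment COL4A1/COL4A2 was at -0.089 and COL6A3/COL6A1 at -0.018, and neither passed. The other 4 ratios that had passed kept their sign but no longer passed. They were COL1A1/COL1A2 at -0.66, COL5A1/COL5A2 at -0.22, COL6A1/COL6A2 at 0.55 and COL8A1/COL8A2 at 0.20. The first 3 of these 4, and COL4A1/COL4A2 with its sign turned, were at the smallest exact permutation p, 0.0286. With fewer ratios at that p the adjusted value was 0.0571. In sign flips of same-numbered pairs the smallest p is 0.125, so that test could not pass. Chains under 5 CPM are limited by depth, and no other alternative reversed a chain that was called.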
